A study of Mus musculus with 2 samples.

Results

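Several metabolic enzymes exist in a muscle form and a form made in most cells, encoded by separate genes. The genes examined here are 4 muscle isoforms, Cox6a2, Cox7a1, Cox8b and Eno3, and their 4 ubiquitous counterparts, Cox6a1, Cox7a2, Cox8a and Eno1. They were chosen by name, as probe sets whose platform symbol is one of these genes, with earlier values of the same arrays known, among them the large differences of Cox6a2 and Eno3. Of the 8 genes, 7 had a probe set with a single gene symbol, out of 8251 genes named in this way on the array, and Eno1 had none, so it has no value here. RNA was measured on Affymetrix U74A arrays in 2 clones of mouse mesoangioblasts, which are vessel-associated progenitors of mesodermal cells, D16 and D351, on 1 array each. The source of both was dorsal aorta from C57BL6 mouse embryos (embryonic day 9.5), held in explant culture for 5 days. Single cells were then cloned over mitomycin-treated fibroblasts of embryos, with 20% fetal calf serum in the medium, and the clones were grown on gelatin. The labels give no treatment, and each group is a single clone measured once, so no difference has a test, standard error or p-value.

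Cytochrome c oxidase is the last complex of the mitochondrial respiratory chain and passes electrons to oxygen. Its catalytic core is encoded by mitochondrial DNA, and nuclear genes supply the surrounding small subunits, of which VIa, VIIa and VIII occur in a heart and muscle form and a ubiquitous, or liver, form. Enolase, a glycolytic enzyme that makes phosphoenolpyruvate, has an alpha form in most cells (Eno1), a beta form in muscle (Eno3) and a gamma form in neurons (Eno2). The muscle forms are known to be switched on as skeletal and heart muscle mature, and Cox7a1 and Cox8b are also known from brown fat.

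The muscle forms Cox6a2 and Eno3 had far lower levels in D351 than in D16, while the ubiquitous forms Cox6a1 and Cox7a2 had nearly the same level in both clones. Cox7a1 lay below the intensity floor in both clones, and Cox8b just above it in D16 alone. Intensities are given after scaling both arrays to the same median log2 level, and the floor of 17.5 is the 40th percentile of the scaled values. A value below the floor is taken as not distinguishable from background. Where 1 clone fell below the floor, the ratio is only a lower bound, and where both did, no ratio was taken.

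Promoter windows are shown first, for the muscle isoform Eno3, one of the genes with a large difference, and for Cox6a1 and Cox7a2, the ubiquitous isoforms measured in both clones. RefSeq tables for assembly GRCm38.p6 held a window for 7 of the 8 genes; none was found for Cox6a2. Each line holds the 250 bases before the transcript start, 5′ to 3′ on the gene's strand, at chr11:70656926-70657175 (plus strand) for Eno3, chr5:115348959-115349208 (minus strand) for Cox6a1 and chr9:79759854-79760103 (minus strand) for Cox7a2. Capitals mark matches to the motifs searched.
Eno3: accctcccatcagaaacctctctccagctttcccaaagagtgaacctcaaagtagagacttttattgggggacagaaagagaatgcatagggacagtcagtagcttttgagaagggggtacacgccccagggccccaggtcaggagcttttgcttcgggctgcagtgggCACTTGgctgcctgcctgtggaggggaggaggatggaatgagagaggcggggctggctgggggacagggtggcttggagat
Cox6a1: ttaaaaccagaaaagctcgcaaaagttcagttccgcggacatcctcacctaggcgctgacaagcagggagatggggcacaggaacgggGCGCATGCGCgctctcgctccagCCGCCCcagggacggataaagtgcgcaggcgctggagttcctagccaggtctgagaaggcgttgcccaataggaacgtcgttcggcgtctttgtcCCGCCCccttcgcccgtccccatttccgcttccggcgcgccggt
Cox7a2: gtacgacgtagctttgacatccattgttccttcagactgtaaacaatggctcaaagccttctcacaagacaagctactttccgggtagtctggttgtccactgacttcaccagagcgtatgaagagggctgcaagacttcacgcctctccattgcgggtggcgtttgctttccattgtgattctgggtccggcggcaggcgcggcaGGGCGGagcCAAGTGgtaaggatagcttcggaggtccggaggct
The search covered both strands of 300 bases, from 250 before to 50 after the start, for the E-box CANNTG bound by myogenic factors, the TATA box TATAAA, the GC box GGGCGG, the motif AAGGTCA of oestrogen-related receptors, the NRF1 site, the MEF2 site and the CArG box. No matches to different motifs overlapped in these windows. Eno3 held 2 E-boxes, starting 81 bases before and 39 bases after the start, and none of the other motifs. E-boxes occur in 72.3% of the 32851 windows of this length, so this motif is common. Cox6a1 held 2 GC boxes, found in 35.7% of windows, and 1 NRF1 site, found in 0.971%. Cox7a2 held 1 GC box and 1 E-box. Among the muscle genes measured low, Cox8b held 2 E-boxes, starting 19 bases before and 17 bases after the start. It also held 1 match to the TATA box letters (13.6% of windows), which began 5 bases after the start and not upstream of it. Cox7a1 held 1 E-box. The windows of Eno3, Cox7a1, Cox8b, Cox6a1, Cox7a2 and Cox8a held no MEF2 site, CArG box or AAGGTCA. These motifs are found in 3.19%, 1.63% and 4.72% of windows, in that order. Their absence says only that these letters are not in these windows. Eno1, which has no array value here, had several windows. AAGGTCA had 1 match in 1 of them, at position -163 from the transcript start. The other Eno1 windows held no AAGGTCA, and no Eno1 window held a MEF2 site or CArG box.

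Cox6a2 encodes the heart and muscle form of subunit VIa, a subunit on the outer side of the complex that takes part in its regulation by ATP and ADP. Its deposited intensity was 413 in D16 and 23.1 in D351, or 406 and 23.5 after scaling. D16 was thus 17.3-fold higher; on the log2 scale, the ratio of D351 over D16 was -4.11. The D351 level lay only 1.34 times above the floor, so the size of the ratio rests on a value near background, whereas the D16 level lay 23.2 times above it. Among the 5196 genes measured in both clones, Cox6a2 had the lowest ratio of all, a description only, since it was chosen for this difference. Genes below the floor in 1 clone have no place in this ranking. Cd34 is one of these, with a bound of -4.76, lower than the ratio of Cox6a2.

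Cox6a1 encodes the ubiquitous form of the same subunit. It measured 1722 in D16 and 1816 in D351 as deposited, and 1692 and 1848 after scaling, a log2 ratio of 0.13. The level was high in both clones, and its rank was 3035th from the low end of the 5196 genes. The log2 ratio of Cox6a2 minus that of Cox6a1 was -4.24, a shift of 18.9-fold between the isoforms that does not depend on how the arrays are scaled by a constant. The single probe set of Cox6a1 is of a class (suffix f) that can also detect similar sequences, so other transcripts may add to its level. Levels of different probe sets cannot be set against each other, so the share of each isoform within a clone is not known.

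Eno3 encodes beta-enolase, the muscle form of the enzyme. It measured 924 in D16 and 95.9 in D351 as deposited, and 908 and 97.6 after scaling, 9.30-fold higher in D16 (a log2 ratio of -3.22). Both levels were well above the floor, 51.9 times in D16 and 5.58 times in D351, unlike those of Cox6a2. It ranked 6th from the low end of the 5196 genes, again as a description. Its ubiquitous counterpart Eno1 has no value here, and the neuronal form Eno2, which was added to the comparison for that reason, measured 78.2 and 62.7, a log2 ratio of -0.32. The log2 ratio of Eno3 minus that of Eno2 was -2.90.

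**Figure D1:**
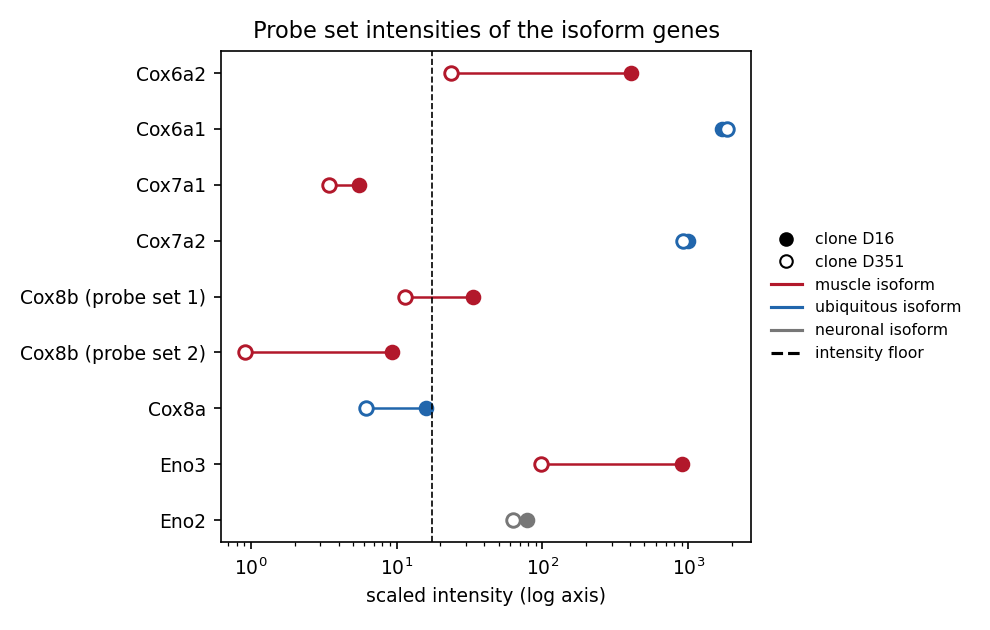
Scaled intensity on a log axis of each probe set of the isoform genes and of Eno2, in clone D16 (filled points) and clone D351 (open points), 1 array each, with the intensity floor of 17.5 as a dashed line. Cox6a2 and Eno3 are far apart between the clones, Cox6a1 and Cox7a2 nearly coincide, and Cox7a1, Cox8a and the second probe set of Cox8b lie below the floor in both.

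Cox7a2 encodes the ubiquitous form of subunit VIIa. It measured 992 in D16 and 912 in D351, a log2 ratio of -0.12, which became 0.19 when hybridization controls set the scale, so it has no settled direction. Its muscle form Cox7a1 measured 5.50 and 3.46 on its single probe set, below the floor in both clones. This pair therefore gives no isoform difference above the floor. With a pseudocount of 16 in place of the floor, which shrinks ratios of dim genes, the log2 ratio of Cox7a1 was -0.14 and its difference from Cox7a2 -0.02. The measured fact is that the muscle form could not be told from background in either clone, and in D16 this stands beside the clear signal of Cox6a2.

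Cox8b encodes the muscle form of subunit VIII and was measured by a pair of probe sets. The brighter one, of a class (suffix r) with relaxed rules for probe choice, gave 33.2 in D16 and 11.5 in D351. With D351 below the floor, D16 was at least 1.90-fold higher, short of 2-fold. The other probe set gave 9.33 and 0.916, below the floor in both. The ubiquitous form Cox8a measured 15.9 and 6.21, also below the floor in both, so it has no ratio. On the log2(value + 16) scale Cox8b had -0.84 and Cox8a -0.52, a difference of -0.32. With the floor lowered to the 25th percentile, Cox8b had a log2 ratio of -1.55 and Cox8a one of -1.14 or lower, so that both forms of subunit VIII were lower in D351 at intensities near background. A probe set below the floor does not show that a gene is off, since Cox5a, which encodes a subunit without a tissue form (named after its values were seen), was also below it in both clones.

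Of the 4 muscle isoforms, 2 passed 2-fold with D16 higher and 0 with D351 higher. Of the 3 ubiquitous isoforms with a probe set, 0 passed 2-fold in either direction, with 1 of them, Cox8a, below the floor. Over the 6100 genes that reached the floor in either clone, 8.82% passed 2-fold with the higher level in D16, 10.5% with the higher level in D351 and 19.3% in either direction. Among the 1179 genes past 2-fold, D351 had the higher level in 54.4%, a share that was 78.7% with hybridization control scaling. The isoform genes were chosen with their ratios known, so nothing is read from their count. The only measurable error is how far probe sets of the same gene differ in log2 ratio, with an SD of 0.52 (806 genes), or 0.73 for a difference of 2 independent ratios. It covers probe error alone, and the spread between cultures of a clone was not measured. Cox6a2, Eno3, Cox6a1, Cox7a2 and Eno2 have 1 probe set each, so no second probe set checks their values. In RNA from a whole culture, fewer cells with a transcript and less of it per cell cannot be told apart.

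**Figure D2:**
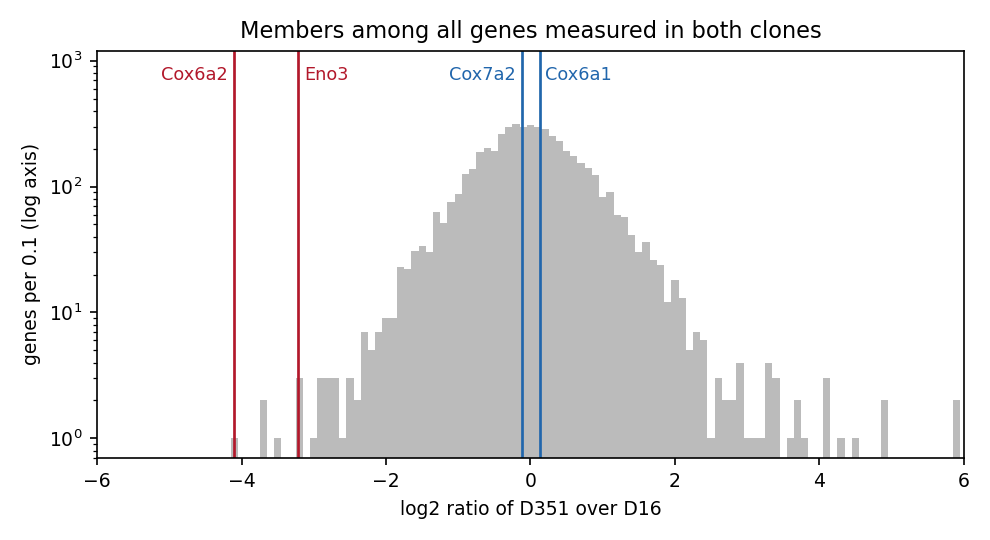
Histogram of the log2 ratio of D351 over D16 for the 5196 genes measured in both clones, with the number of genes per bin of 0.1 on a log axis and the isoform genes as vertical lines. Cox6a2 (-4.11) and Eno3 (-3.22) lie at the low end, and Cox7a2 (-0.12) and Cox6a1 (0.13) in the middle.

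The other nuclear subunits of cytochrome c oxidase had nearly equal levels in the clones. Of 13 subunit genes listed, 9 were on the array and 7 were measured, with 0 past 2-fold in either direction and a median log2 ratio of -0.24, against -0.03 over all genes. Cox6c measured 1863 in D16 and 1577 in D351, and Cox5b, which encodes a subunit on the matrix side, 1125 and 794. With Cox6a1 and Cox7a2 added, the 9 subunits measured in both clones ran from -0.50 to 0.15, while Cox6a2 stood at -4.11. This range takes the brightest probe set of each gene, and a dimmer one of Cox4i1 gave -0.70. Without probe sets that carry a suffix, the median of the listed subunits was -0.42 in place of -0.24. With hybridization control scaling the median over all genes was 0.27 in place of -0.03, so signs of ratios near 0 in these lists depend on the scaling.

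Genes listed with the assembly of the complex were more spread out. The list is broad and holds the cytochrome c gene Cycs (a log2 ratio of -0.96) and Lrpprc, which are not assembly factors in the strict sense. Of 10 on the array, 8 were at or above the floor, 2 of them past 2-fold with D351 higher and 1 with D16 higher, and the median was 0.23. Lrpprc, which stabilises mitochondrial messenger RNAs, measured 379 in D16 and 116 in D351, 3.25-fold higher in D16. Coa3 and Surf1, which act early in the assembly of the complex, went the other way, at 154 and 436 for Coa3 (2.83-fold) and 70.4 and 177 for Surf1 (2.51-fold). Among regulators of mitochondrial biogenesis, 7 of 11 on the array were measured and 1 passed 2-fold, the mitochondrial transcription factor gene Tfb2m, at 38.5 and 105 (2.74-fold higher in D351). Their median was -0.16.

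Glycolytic enzymes showed no difference of the size of Eno3. Of 17 on the array, 15 were measured and 0 passed 2-fold in either direction, with a median of -0.13 and a range from -0.62 to 0.67. Ldha, which makes lactate, measured 2665 in D16 and 1729 in D351, and Hk1, the hexokinase of most tissues, 2110 and 2178. Eno3, with a log2 ratio of -3.22, lay outside this range. The range takes the brightest probe set of each gene, and a dimmer one of Aldoa, at -0.82, also lay outside it.

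Genes listed as other muscle isoforms stayed within 2-fold where they could be measured. This list is broad. Its measured genes include Idh3a, which is not limited to muscle, the calcium storage gene Casq1 and Ldhb, the heart form of lactate dehydrogenase. Ldha, the form of skeletal muscle, was listed with the ubiquitous or non-muscle isoforms instead. Of 17 listed genes on the array, 9 were measured, with 0 past 2-fold, a median of -0.20 and a range from -0.87 to -0.02. All 9 ratios were thus below 0, the direction of Cox6a2 and Eno3. At a 1.5-fold threshold 3 passed with D16 higher and 0 with D351 higher. With hybridization control scaling the median of the list was 0.11. The brightest were Slc25a4, the heart and muscle adenine nucleotide translocator, at 1664 and 1595, and the muscle glycogen synthase gene Gys1, at 355 and 194 (a log2 ratio of -0.87). The other 8 were below the floor in both clones, among them, named after their values were seen, the muscle creatine kinase gene Ckm (8.74 and 7.02) and the muscle phosphoglycerate mutase gene Pgam2 (1.87 and 1.93). Of 18 ubiquitous or non-muscle isoforms at or above the floor, 3 passed 2-fold with D351 higher and 1 with D16 higher, and the median was -0.01. The brain-type creatine kinase gene Ckb measured 39.5 in D16 and 172 in D351 (4.37-fold). The liver-type carnitine palmitoyltransferase gene Cpt1a measured 270.1 and 699 (2.59-fold), and Phka2, the liver form of a phosphorylase kinase subunit, was at least 4.39-fold higher in D351. Fabp5, a fatty acid binding protein gene, was 2.12-fold higher in D16, at 205 and 96.8.

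Both genes were measured in both clones in 5 of 20 other isoform pairs, which were matched up after the files were read. The difference of log2 ratios, muscle form minus counterpart, was -1.59 for the calcium pump genes Atp2a1 and Atp2a2. For Atp2a1 the levels were 34.1 and 19.1, near the floor, and both probe sets are of a class (suffix s) that can detect related transcripts. The differences were -0.42 for the phosphofructokinase genes Pfkm and Pfkl and -0.24 for the hexokinase genes Hk2 and Hk1. They were 0.22 for the lactate dehydrogenase genes Ldhb and Ldha and 0.60 for Slc25a4 and Slc25a5. Ldhb, the heart form, was entered as the muscle form, and Ldha, the form of skeletal muscle, as its counterpart. The sign of 0.22 rests on this assignment. A further pair, the phosphorylase kinase genes Phka1 and Phka2, had -2.16 or lower, a bound because Phka2 was below the floor in D16. The median of the 5 measured pairs was -0.24, against -4.24 for Cox6a2 and Cox6a1 and -2.90 for Eno3 and Eno2.

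**Figure D3:**
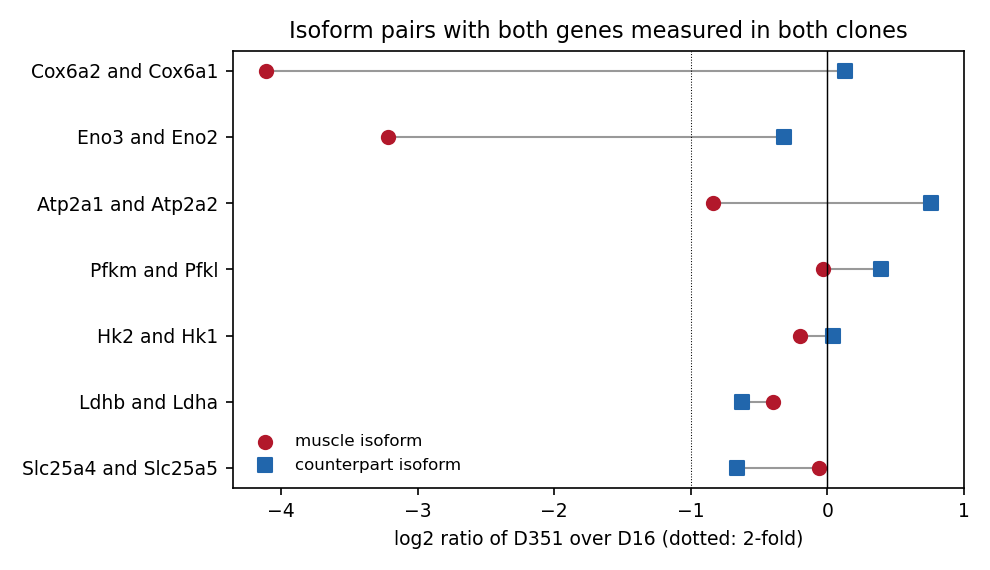
Log2 ratio of D351 over D16 for the muscle isoform (red circles) and its counterpart (blue squares), with dotted lines at 2-fold. The 7 pairs with both genes measured in both clones are drawn. The heart form Ldhb is drawn as the muscle isoform of its pair. The gap is widest for Cox6a2 and Cox6a1 (-4.24) and for Eno3 and Eno2 (-2.90), and the other 5 pairs lie between -1.59 and 0.60; Phka1 and Phka2, with a bound only, are not drawn.

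Genes of the contractile apparatus of skeletal and heart muscle were mostly below the floor in both clones. Of 33 on the array, 19 were below it in both and 14 reached it in at least 1 clone. Over all genes, 6100 of 8251 reached it in at least 1 clone. The 19 included, named after their values were seen, the skeletal actin gene Acta1 and the embryonic myosin gene Myh3. Of the 14 others, 1 passed 2-fold with D351 higher and 0 with D16 higher, and the median was -0.32. That gene was the cardiac actin gene Actc1, at 180.0 and 408 (2.27-fold), from a probe set that can detect other actins. The summed level of the list was 646 in D16 and 789 in D351, of which Actc1 alone gave 180.0 and 408. The higher sum in D351 rests on this gene. In D16, 11 of the 33 were at or above the floor, with a median level of 10.5 and a highest level of 180.0, and in D351 also 11, with a median of 8.45 and a highest level of 408. Muscle transcription factors had a median of 0.00, with 12 of 16 at or above the floor. The cardiac factor gene Gata4 was 2.43-fold higher in D16 (68.5 and 28.2) and Gata6 at least 2.88-fold higher in D351.

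Other cell types that use these isoforms, or that the cultures could hold, were checked by their markers. Of 9 brown fat genes on the array, 7 were below the floor in both clones, among them, named after their values were seen, Ucp1, the uncoupling protein of brown fat, and Cidea. The other 2, Ebf2 and the adipogenic receptor gene Pparg, had lower bounds of 2.64-fold and 2.11-fold, with D351 higher, the opposite direction to Cox6a2. Of 11 smooth muscle genes, 7 passed 2-fold with D351 higher and 0 with D16 higher, at summed levels of 3237 and 8135. Of 11 fibroblast genes, 5 passed 2-fold with D351 higher and 1 with D16 higher, with summed levels of 10098 and 14888. The gene higher in D16, S100a4, had the largest ratio of the list, at 1834 and 414 (4.42-fold). Lum (4.02-fold), Postn (2.94-fold) and Col3a1 (2.54-fold) were higher in D351. The fibroblast count with D351 higher depended on the probe set rule. It was 3 with the median of probe sets in place of the brightest one, and 1 gene was still higher in D16. The part of these differences in the results on the isoforms was not tested. Of 10 endothelial genes, 7 were below the floor in both clones, and of 11 haematopoietic genes 4 were. In each list 1 gene passed 2-fold, with D351 higher (Flt1 and Cd68). Over all genes, 6100 of 8251 reached the floor in at least 1 clone. In these lists 2 of 9 brown fat, 3 of 10 endothelial and 7 of 11 haematopoietic genes did. Of 6 progenitor markers on the array, the receptor genes Kit and Kdr were below the floor in both clones. Cd34, which marks vascular and blood progenitors, measured 475 in D16 and lay below the floor in D351 (6.72), a bound of 27.2-fold in the direction of Cox6a2 and Eno3. Pdgfrb, a receptor gene of pericytes, went the other way (54.3 and 197), and Pdgfra (762 and 714) and Thy1 (1534 and 1041) stayed within 2-fold. The relation of Cd34 to the results on the isoforms was not tested.

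**Figure D4:**
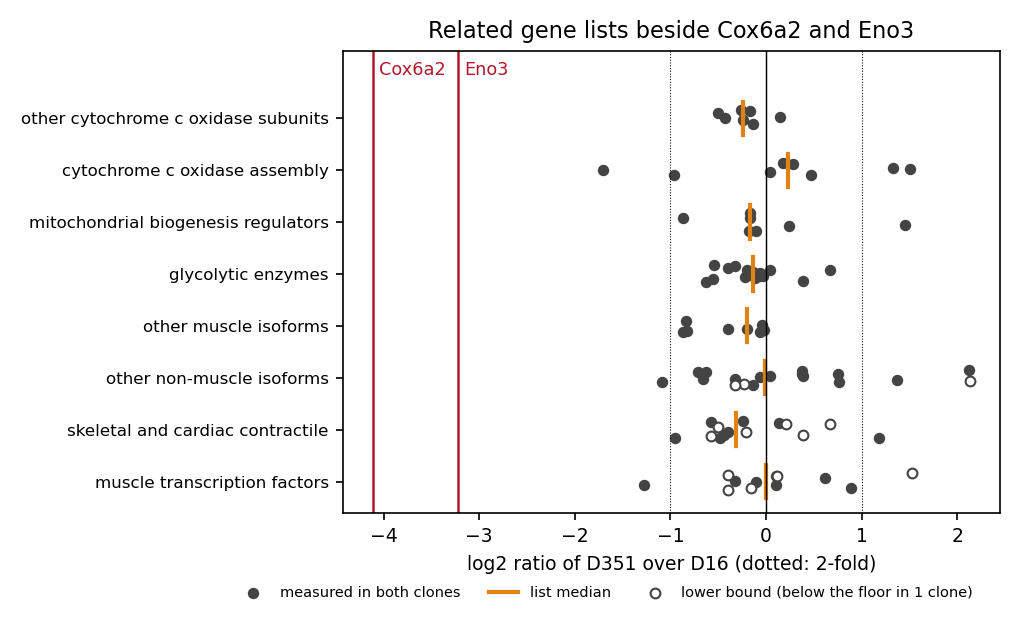
Log2 ratio of D351 over D16 for each gene at or above the floor in 8 gene lists, with filled points for genes measured in both clones, open points for lower bounds, orange bars for list medians, dotted lines at 2-fold and red lines for Cox6a2 and Eno3. All plotted points lie above Cox6a2 (-4.11) and Eno3 (-3.22), and the lowest is Lrpprc (-1.70).

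The differences of Cox6a2 and Eno3 were not seen in the genes beside them. In the gene order of GRCm38.p6, the 3 nearest genes on each side with a probe set were taken. For Cox6a2, on chromosome 7, 0 of 6 passed 2-fold, and the 4 measured in both clones ran from -0.98 for Tial1 to 0.27 for Itgax. Tgfb1i1, the next one on one side, measured 623 and 693. For Eno3, on chromosome 11, all 6 were measured, 0 passed 2-fold and the range was -0.84 for Pfn1 to 0.69 for Kif1c. Cox8b and Cox7a1 also lie on chromosome 7, where 0 of the 6 genes around Cox8b and 1 of the 6 around Cox7a1 passed 2-fold (Zfp30, at 23.3 and 67.1, higher in D351).

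The genes with ratios most like those of Cox6a2 and Eno3 were found by the smallest distance between log2 ratios, a likeness over 2 arrays only. For Cox6a2 they were Epb41l4a (-3.69, at 287 in D16 and 22.3 in D351) and Mtm1 (-3.65, by a probe set that can detect other genes). The probe set of Epb41l4a is of the class with relaxed rules (suffix r), and its D351 level was near the floor of 17.5. For Eno3 the nearest genes were the IGF-binding protein gene Igfbp4 (-3.22, at 764 and 82.0) and Fam107b (-3.20, at 475 and 51.6).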

How the data were processed

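Total RNA of 2 mesoangioblast clones was measured on 1 U74A array each. The intensity values per probe set are those the authors deposited, on a linear scale; how they were computed (software, background, scaling) was not given in the sources used here. Their 2% trimmed mean was 100.1 in both arrays. Of 12422 non-control probe sets, 10833 had 1 symbol in the platform table, 396 several and 1193 none; only the first were named, with symbols updated by Entrez number to RefSeq GRCm38.p6.

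Each array was multiplied by a factor that equalised the median log2 intensity of the non-control probe sets that reached the floor on both (factors 0.983 for D16 and 1.02 for D351). Values below the floor, the mean of the arrays' 40th percentiles, were set to it. At or above it were 60.6% of probe sets in D16 and 59.3% in D351. Each gene was represented by its brightest probe set and called at 2-fold. With 1 array per clone there is no test, and the number of arrays limits the precision.

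The members, lists and rules were chosen with earlier results of these data known, and the other isoform pairs after the files were read. Named genes were all members, up to 4 genes of each list past 2-fold (otherwise the 2 brightest), and the 2 genes nearest in ratio to each member past 2-fold. The calculation was tested on simulated data. Planned protein comparisons were not made. Alternatives covered scaling, floor, probe set rule and threshold. Python 3.11.15, numpy 2.4.6, pandas 2.3.3, scipy 1.17.1, statsmodels 0.14.6 and matplotlib 3.10.9 were used.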

Additional observations from a re-analysis of the deposited data

How the results depend on the processing

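No paired analysis was possible because there is only 1 array for a clone, and no replicate could be left out. The log2 ratio of Cox6a2 was -2.96 as a bound with the floor at the 60th percentile and -3.42 with a pseudocount of 16 in place of the floor, and lay between -4.16 and -3.80 under the other 7 alternatives. Its difference from Cox6a1 was -3.03 with the floor at the 60th percentile. Eno3 stayed between -3.27 and -2.91 under 9 alternatives. With the floor at the 25th percentile, 1 ubiquitous isoform (Cox8a) passed 2-fold with D16 higher. At that floor, and also at a 1.5-fold threshold, 3 muscle isoforms passed. Without probe sets that carry a suffix, Cox6a1 has no value and Cox8b, below the floor in both clones, has no ratio. The genes past 2-fold numbered 641 higher in D351 and 538 higher in D16; with hybridization control scaling they were 1069 and 289, so that 78.7% of them were higher in D351 against 54.4%. They numbered 832 and 870 with the floor at the 25th percentile and 371 and 354 with it at the 60th. Thresholds of 1.5-fold and 3-fold gave 1285 and 1277, and 251 and 158. Of 402 values of the gene lists under the alternatives, 348 moved by less than the probe set spread or 1.5 times, 54 by more. Of 116 list medians, 19 changed sign, 8 of them with hybridization control scaling. Only 3 of the 19 also moved by more than the probe set spread. With the floor at the 60th percentile the contractile median went from -0.32 to 0.39 and the haematopoietic one from -0.27 to 0.83, and with hybridization control scaling the latter was 0.43. Intensity near the floor limits what can be said of Cox7a1, Cox8a, Cox8b and the D351 level of Cox6a2.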
